A study of Mus musculus with 6 samples.

Results

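A set of 10 genes of glucose uptake, glycolysis and lactate handling was followed in intestinal adenomas of 2 *Apc* mutant mouse models: *Slc2a1*, *Hk1*, *Hk2*, *Pfkp*, *Aldoa*, *Pkm*, *Ldha*, *Pdk1*, *Slc16a1* and *Slc16a3*. They were chosen by name, with earlier results of these data known. They fill 11 of the 34866 gene entries of the table, since *Aldoa* is listed under 2 identifiers, and all 11 entries had enough counts to be among the 16536 genes tested. The adenomas were excised from C57BL/6J mice aged between 100 and 120 days, heterozygous for 1 of the germline alleles (Apc1322T/+ or ApcMin/+), with 3 libraries per genotype. Both alleles encode a truncated Apc protein, the scaffold that targets β-catenin for destruction. That of ApcMin ends before the repeats through which Apc binds β-catenin, and part of these repeats is present in that of Apc1322T. Both groups are therefore mutant, and no wild-type tissue is part of the comparison. Each library stands for 1 mouse, in most cases from more than 1 extraction, and it holds whole adenoma tissue, so that fewer cells of a type and less RNA per cell cannot be told apart.

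Glycolysis splits glucose into pyruvate, with hexokinase and phosphofructokinase as its controlled entry steps. Tumour cells often convert much of this pyruvate to lactate and export it even where oxygen is present. In the healthy small intestine, enterocytes also carry a separate set of sugar transporters and isozymes that serves the uptake and metabolism of dietary sugar. In colon cancer cells, *Pdk1* and *Slc16a1* have been described as targets of Wnt signalling, and most of the 10 genes are known to respond to hypoxia.

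Promoters of 4 of these genes are shown because the results turn on them: those of *Pfkp* and *Ldha*, in which the genotypes did not overlap, and those of *Slc2a1* and *Pdk1*, which varied together from library to library. They are RefSeq sequences of GRCm38.p6 that run from 250 bases before the annotated start of the gene to 50 bases after it, 5′ to 3′ on the strand of the gene. Capitals mark the letters ACGTG and GCGTG on either strand, the core of the sequence bound by hypoxia inducible factors. The *Pfkp* promoter lies at chr13:6648722-6649021 on the minus strand, the *Ldha* promoter at chr7:46845554-46845853 on the plus strand, the *Slc2a1* promoter at chr4:119108495-119108794 on the plus strand and the *Pdk1* promoter at chr2:71872974-71873273 on the plus strand.
Pfkp: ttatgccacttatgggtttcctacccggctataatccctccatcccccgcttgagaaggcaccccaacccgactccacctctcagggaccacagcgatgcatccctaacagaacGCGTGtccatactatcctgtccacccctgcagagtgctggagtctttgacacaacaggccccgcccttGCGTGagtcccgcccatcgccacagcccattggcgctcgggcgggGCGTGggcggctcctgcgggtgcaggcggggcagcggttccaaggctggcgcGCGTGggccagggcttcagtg
Ldha: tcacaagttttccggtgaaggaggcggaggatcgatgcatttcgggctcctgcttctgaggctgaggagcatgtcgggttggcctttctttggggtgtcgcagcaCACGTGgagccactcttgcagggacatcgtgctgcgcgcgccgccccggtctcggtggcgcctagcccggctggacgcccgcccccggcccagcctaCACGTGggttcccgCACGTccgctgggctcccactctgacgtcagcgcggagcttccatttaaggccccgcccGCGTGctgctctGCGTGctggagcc
Slc2a1: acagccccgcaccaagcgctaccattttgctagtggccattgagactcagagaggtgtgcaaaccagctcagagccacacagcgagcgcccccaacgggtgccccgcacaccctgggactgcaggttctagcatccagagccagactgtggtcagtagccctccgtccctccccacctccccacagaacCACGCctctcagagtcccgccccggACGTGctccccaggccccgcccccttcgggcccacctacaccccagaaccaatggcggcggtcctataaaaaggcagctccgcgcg
Pdk1: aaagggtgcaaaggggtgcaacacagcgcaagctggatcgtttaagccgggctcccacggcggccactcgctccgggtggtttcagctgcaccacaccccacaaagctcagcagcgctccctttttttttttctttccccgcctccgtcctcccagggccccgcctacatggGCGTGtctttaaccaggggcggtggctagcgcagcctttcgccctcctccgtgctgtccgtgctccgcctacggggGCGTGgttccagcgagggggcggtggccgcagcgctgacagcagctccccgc
These windows hold 4 such matches for *Pfkp*, 7 for *Ldha*, 2 for *Slc2a1* and 2 for *Pdk1*. In *Ldha*, 2 of the stretches read CACGTG, the E-box that Myc family factors bind, and each counts as a match on both strands. RefSeq lists 16 promoters for the 10 genes, of which 12 (75%) hold ACGTG or GCGTG on either strand, against 43.8% of all 32851 promoters of the same length. Each of the 10 genes has at least 1 such promoter. Of the 12, 2 are overlapping windows of *Aldoa* that share the same match. CACGTG, which overlaps ACGTG, is in 2 of the 16 (12.5%), those of *Slc16a1* and *Ldha*, against 7.15% of all promoters. CTTTGA, the core that Tcf factors bind, is in 3 of the 16 (18.8%), against 16% of all. These are the window of *Pfkp* shown above and further promoters of *Pdk1* and *Ldha* that are not shown. These matches describe the letters only, and binding was not measured.

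The libraries held between 23132461 and 33518324 estimated counts, and the 10 genes between 1143 (*Pdk1*) and 62272 (*Ldha*) counts in a library. Apc1322T replicate 1 was further from Apc1322T replicates 2 and 3 than these were from each other. The chi-square statistic per gene between its counts and theirs was 87.2 and 98.4, against 24.2 between replicates 2 and 3. It was 52.9 between Apc1322T replicate 1 and ApcMin replicate 3, and 51.5 between Apc1322T replicate 3 and ApcMin replicate 2. Between ApcMin libraries it was 61.9, 79.9 and 97.0, so distances like those of Apc1322T replicate 1 also occurred within ApcMin. Because of the gap within Apc1322T, the values of the 10 genes, and the counts over lists, are given with and without Apc1322T replicate 1. Markers of several cell types also lay at different levels, though 0 of them passed an adjusted p under 0.01 by edgeR. By DESeq2 2 of 52 did, *Pdgfra* of the fibroblast list (adjusted p = 0.0065) and *Cdh5* of the endothelial list (adjusted p = 0.0067). The 7 epithelial markers were all lower on average in ApcMin, and their summed level ran from 12212 to 14232 CPM (counts scaled to the library total) in Apc1322T and from 10004 to 11502 CPM in ApcMin. The 10 mature enterocyte markers were likewise all lower on average in ApcMin, with sums of 17490 to 31157 CPM against 10867 to 22154 CPM. The 6 fibroblast markers were all higher on average in ApcMin, with sums of 604 to 1523 CPM against 982 to 3304 CPM. Of 8 smooth muscle markers 7 were higher, and all 4 endothelial markers were. The sums ran from 300 to 472 CPM against 437 to 580 CPM for smooth muscle, and from 78.0 to 119.8 CPM against 120.0 to 170 CPM for endothelium. Of the 7 leukocyte markers tested 6 were higher, and of 7 red blood cell markers 5. The sums ran from 446 to 571 CPM against 357 to 1006 CPM for leukocytes, and from 361 to 1067 CPM against 481 to 985 CPM for red blood cells. No marker of these lists was at 0 in any library. The epithelial markers of an intestinal adenoma were abundant in all libraries, and *Epcam* ranged from 10.81 to 11.41 on the log2 CPM scale. With all 6 libraries, 15.1% of all genes had an unadjusted edgeR p under 0.05. Of the markers, 4 of 7 epithelial, 2 of 10 enterocyte, 2 of 6 fibroblast and 2 of 8 smooth muscle markers did. The counts were 1 of 4 for endothelium, 1 of 7 for leukocytes and 0 of 7 for red blood cells. Without Apc1322T replicate 1, 20 of 51 markers did, beside 24.4% of all genes. Among them were 6 of 7 epithelial markers, all lower, and 4 of 6 red blood cell markers, all higher in ApcMin. The part of these differences in the results below was not tested.

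Per length of transcript, *Ldha*, which interconverts pyruvate and lactate, had the highest level of the 10 genes and *Pdk1*, the kinase that inhibits pyruvate dehydrogenase, the lowest. The mean over the 6 libraries was 10.11 ± 0.18 (SD, n = 6) log2 CPM per kilobase of the longest transcript for *Ldha*, 9.45 ± 0.17 for *Aldoa* and 9.34 ± 0.12 for *Pkm*. *Aldoa* encodes the aldolase found in most tissues and *Pkm* the pyruvate kinase that is spliced to the M1 or M2 form. A gap of 3.77 on this log2 scale separated these 3 genes from the next, the lactate exporter *Slc16a3* (MCT4), at 5.57 ± 0.28. The other levels per kilobase were 5.50 ± 0.38 for the glucose transporter *Slc2a1* (GLUT1), 4.92 ± 0.32 for *Pfkp*, the platelet type phosphofructokinase, and 4.87 ± 0.08 for the lactate transporter *Slc16a1* (MCT1). They were 4.52 ± 0.30 for *Hk2*, 4.12 ± 0.14 for *Hk1* and 3.72 ± 0.27 for *Pdk1*. Apart from *Ldha* over *Aldoa* and *Pkm* over *Slc16a3*, each neighbouring pair in this order had overlapping ranges over the 6 libraries. The places of *Pkm* against *Aldoa*, of *Hk1* against *Hk2*, of *Pfkp* against *Slc2a1* and of *Slc16a1* and *Pdk1* at the bottom changed when the mean length of all transcripts was used.

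The same scale shows which isozyme of each step was present. *Pfkl*, the liver type phosphofructokinase, was at 5.99 log2 CPM per kilobase, above *Pfkp*, and the muscle type *Pfkm* at 1.73. *Hkdc1*, a further hexokinase gene, was at 5.05, while *Hk3* was at -1.11. *Ldhb* was at 2.62, far under *Ldha*. *Pdk2*, *Pdk3* and *Pdk4* were at 4.18, 3.16 and 2.38, on either side of *Pdk1*. *Bsg*, the chaperone of the lactate transporters, was at 9.34.

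**Figure D1:**
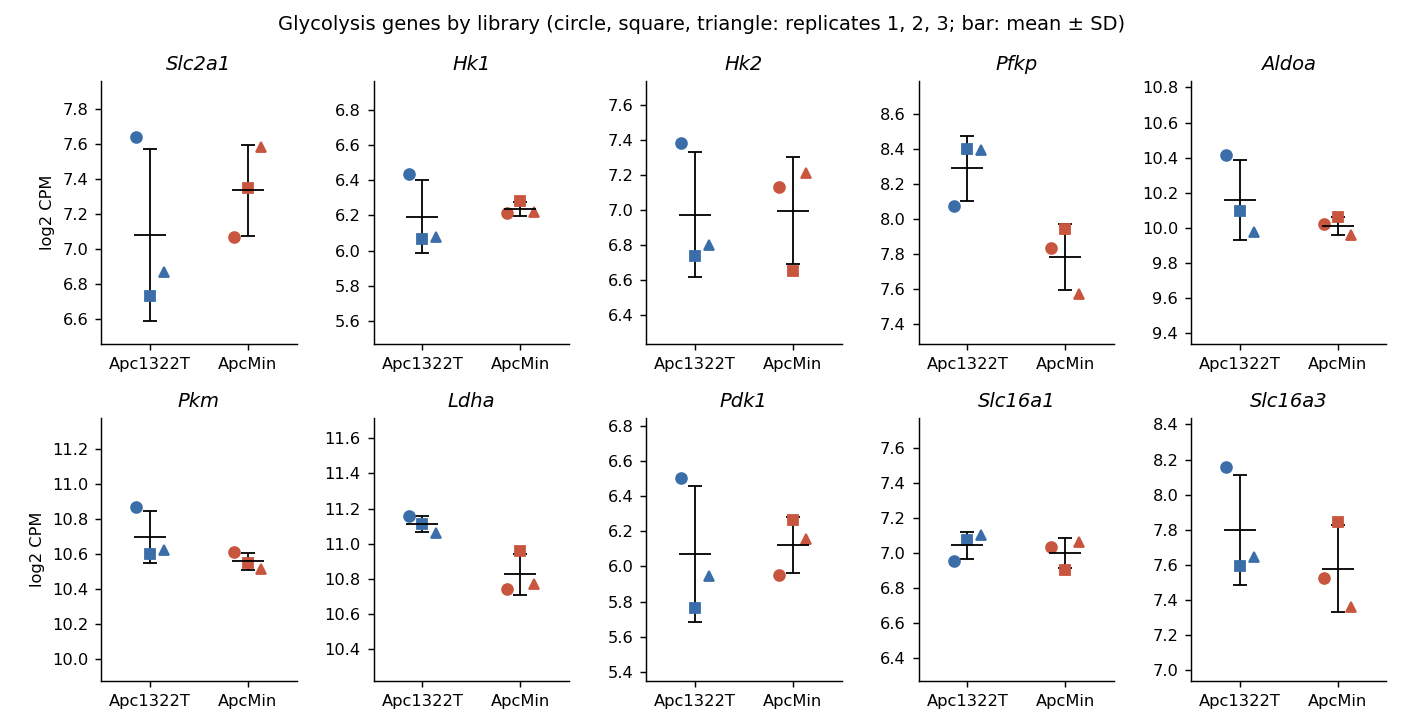
Log2 CPM of each of the 10 genes in the 6 libraries, 1 panel per gene, with 3 points per genotype and bars for the mean ± SD. Each vertical axis spans the same width of 1.5 log2 units. The genotypes are separate for Pfkp and Ldha, and Apc1322T replicate 1 is the highest point in 8 of the 10 panels, a count not made over all genes.

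Between the genotypes, 0 of the 10 genes passed an adjusted p under 0.01 by edgeR's quasi-likelihood test, as did 0% of the 16536 genes tested. By DESeq2's Wald test 1.12% of all genes passed this threshold, and 0 of the 10. At an unadjusted p under 0.05, 2 of the 10 were lower in ApcMin and 0 were higher, where 15.1% of all genes fell under this p (7.60% lower and 7.49% higher in ApcMin). DESeq2 also had 2 of the 10 under an unadjusted p of 0.05. The median log2 fold change of ApcMin over Apc1322T was -0.094 for the 10 genes and 0.017 for all genes tested.

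*Slc2a1*, which brings glucose into the cell, had log2 CPM of 7.64, 6.73 and 6.87 in Apc1322T replicates 1, 2 and 3 and of 7.07, 7.35 and 7.58 in ApcMin replicates 1, 2 and 3. The highest value of all was in Apc1322T replicate 1 and the lowest values were in the other 2 libraries of that genotype, so the genotypes overlapped. The log2 fold change was 0.21 ± 0.27 (SE, n = 3 per genotype; edgeR quasi-likelihood test, Benjamini-Hochberg adjusted p = 0.714). Without Apc1322T replicate 1 it was 0.55 ± 0.15, with an unadjusted edgeR p of 0.011 and an adjusted p of 0.105, and the remaining libraries of the genotypes no longer overlapped.

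The hexokinases trap glucose in the cell by phosphorylating it. *Hk2* had log2 CPM of 7.38, 6.74 and 6.80 in Apc1322T and of 7.13, 6.65 and 7.21 in ApcMin, in the order of the replicates. The genotypes overlapped widely, and the log2 fold change was 0.014 ± 0.22 (edgeR adjusted p = 0.980). *Hk1* had 6.44, 6.06 and 6.08 in Apc1322T and 6.21, 6.28 and 6.22 in ApcMin. The 3 ApcMin libraries of *Hk1* lay within 0.070 of each other and inside the range of Apc1322T, with a log2 fold change of 0.034 ± 0.12 (edgeR adjusted p = 0.905). Without Apc1322T replicate 1 the values were 0.25 ± 0.17 for *Hk2* and 0.17 ± 0.077 for *Hk1* (edgeR adjusted p = 0.406 and 0.234).

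*Pfkp*, a subunit of the enzyme that commits sugar to glycolysis, had the largest difference of the 10 genes in size. Its log2 CPM was 8.07, 8.40 and 8.39 in Apc1322T and 7.83, 7.94 and 7.57 in ApcMin. Every ApcMin library was under every Apc1322T library, and the mean level was 1.42-fold higher in Apc1322T. The log2 fold change was -0.51 ± 0.14 with an unadjusted edgeR p of 0.0089, which missed the threshold after adjustment over all genes (edgeR adjusted p = 0.279, DESeq2 adjusted p = 0.054). With each library left out in turn it stayed between -0.60 and -0.41. Not overlapping is common in these data, at 21.0% of all genes tested (9.96% lower and 11.0% higher in ApcMin).

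*Aldoa*, which cleaves fructose bisphosphate, had log2 CPM of 10.41, 10.09 and 9.97 in Apc1322T and of 10.02, 10.06 and 9.96 in ApcMin. The genotypes overlapped and the log2 fold change was -0.16 ± 0.14 (edgeR adjusted p = 0.580). *Pkm*, which makes pyruvate, had 10.86, 10.60 and 10.62 in Apc1322T and 10.61, 10.55 and 10.51 in ApcMin. It overlapped by 1 library, with a log2 fold change of -0.14 ± 0.12 (edgeR adjusted p = 0.564). Both differences shrank without Apc1322T replicate 1, to -0.017 ± 0.092 for *Aldoa* and -0.048 ± 0.088 for *Pkm*.

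*Ldha*, which turns pyruvate into lactate, was the other gene whose genotypes did not overlap. Its log2 CPM was 11.16, 11.11 and 11.06 in Apc1322T and 10.74, 10.96 and 10.77 in ApcMin. The mean level was 1.22-fold higher in Apc1322T, with a log2 fold change of -0.28 ± 0.11 and an unadjusted edgeR p of 0.042 (edgeR adjusted p = 0.317, DESeq2 adjusted p = 0.131). Unlike *Aldoa* and *Pkm*, it was hardly altered without Apc1322T replicate 1, at -0.26 ± 0.10. Its unadjusted p was 0.095 without Apc1322T replicate 2, 0.068 without Apc1322T replicate 3, 0.136 without ApcMin replicate 1 and 0.131 without ApcMin replicate 3, so that 1 of the 10 genes, *Pfkp*, was left under 0.05 in each of these 4 fits. Without Apc1322T replicate 1 there were 3, with *Slc2a1* beside *Pfkp* and *Ldha*, where 24.4% of all genes had an unadjusted p under 0.05.

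*Pdk1*, which keeps pyruvate out of the mitochondrial oxidation, had log2 CPM of 6.51, 5.77 and 5.94 in Apc1322T and of 5.95, 6.26 and 6.16 in ApcMin. Its highest and its lowest value were both in Apc1322T, and the log2 fold change was 0.021 ± 0.20 (edgeR adjusted p = 0.967). The lactate transporter *Slc16a1* was the steadiest of the 10 genes, with 6.95, 7.07 and 7.10 in Apc1322T and 7.03, 6.90 and 7.06 in ApcMin. Its log2 fold change was -0.045 ± 0.086 (edgeR adjusted p = 0.816). *Slc16a3*, the lactate exporter, had 8.16, 7.59 and 7.64 in Apc1322T and 7.53, 7.85 and 7.36 in ApcMin. The genotypes overlapped in it, with a log2 fold change of -0.23 ± 0.19 (edgeR adjusted p = 0.575). Without Apc1322T replicate 1 the 3 log2 fold changes were 0.28 ± 0.12 for *Pdk1*, -0.083 ± 0.082 for *Slc16a1* and -0.019 ± 0.15 for *Slc16a3*.

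**Figure D2:**
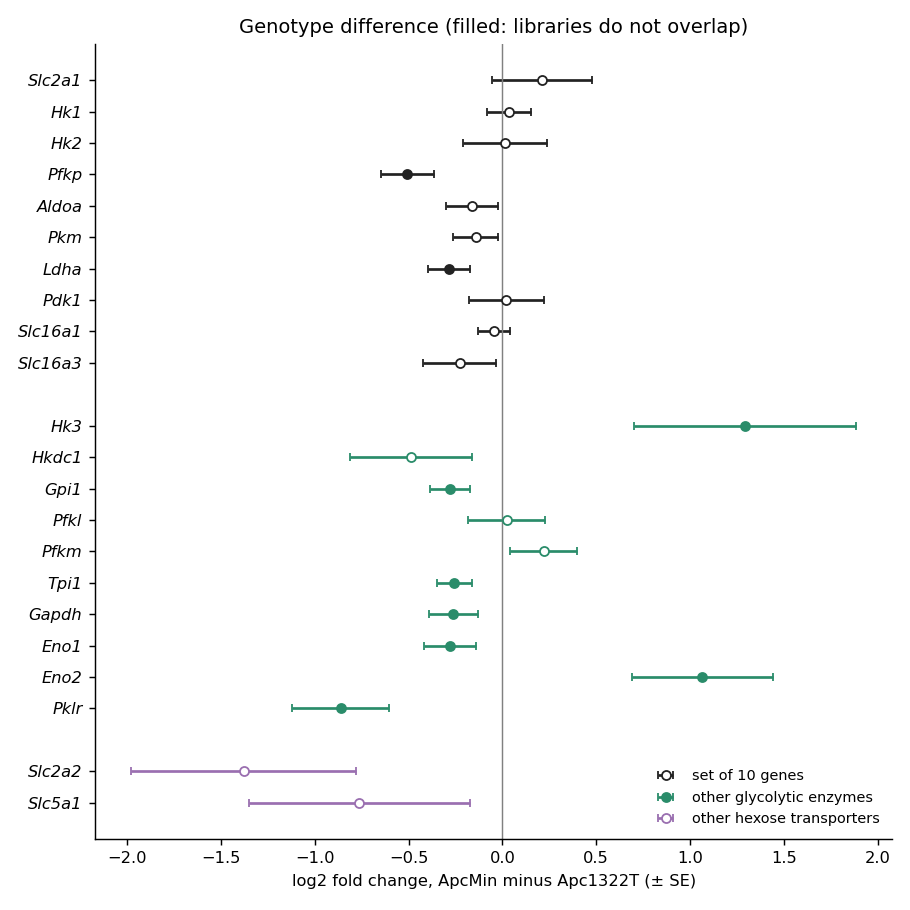
Log2 fold change of ApcMin over Apc1322T with its standard error for the 10 genes and the other glycolytic enzymes and hexose transporters that the text names, except Slc2a5 (horizontal axis, log2 units). Filled points mark genes in which the genotypes did not overlap, and values to the left of 0 are lower in ApcMin. Pfkp is at -0.51 and Ldha at -0.28.

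In 8 of the 10 genes, all but *Pfkp* and *Ldha*, Apc1322T replicate 1 differed from the mean of Apc1322T replicates 2 and 3 by more than the genotypes differed from each other. This library also held an extreme place in most genes. Apc1322T replicate 1 had the highest value of all 6 libraries for 8 of the 10 genes, all but *Pfkp* and *Slc16a1*, for which it was the lowest of its genotype. How often Apc1322T replicate 1 was highest, or differed by more than the genotypes did, was not counted over all genes. Neither count can therefore be read as particular to the 10 genes. Against the mean of Apc1322T replicates 2 and 3 the level of Apc1322T replicate 1 was 1.79-fold for *Slc2a1*, 1.57-fold for *Pdk1*, 1.53-fold for *Hk2* and 1.45-fold for *Slc16a3*. The level was 1.30-fold for *Aldoa*, 1.29-fold for *Hk1*, 1.19-fold for *Pkm* and 1.05-fold for *Ldha*. For *Slc16a1* and *Pfkp* it was 0.912-fold and 0.800-fold. Apc1322T replicates 2 and 3 were alike in all 10 genes, and the widest gap between them was 0.18 log2 units, in *Pdk1*. The same library also differed from these 2 in cell markers: the enterocyte markers summed to 17490 CPM against 31054 and 31157 CPM, the red blood cell markers to 1067 against 382 and 361 CPM, and the fibroblast markers to 1523 against 604 and 861 CPM. With this library left out, 6 of the 10 genes did not overlap between the genotypes, *Slc2a1*, *Hk1* and *Pdk1* higher and *Pfkp*, *Ldha* and *Slc16a1* lower in ApcMin. With so few libraries left this held for 48.0% of all genes (23.9% higher and 24.1% lower).

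**Figure D3:**
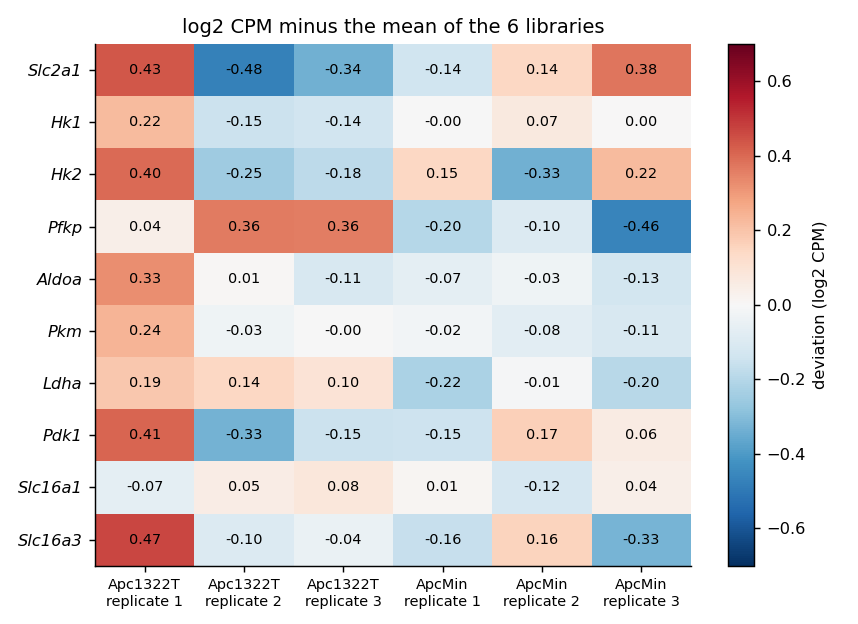
Deviation of each library from the mean of the 6 libraries in log2 CPM, with the 10 genes as rows and the libraries as columns. Apc1322T replicate 1 deviates by 0.43 for Slc2a1 and 0.47 for Slc16a3. Pfkp is at 0.36 in Apc1322T replicates 2 and 3, near the mean in Apc1322T replicate 1 (0.038) and under the mean in all 3 ApcMin libraries.

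Across the 6 libraries, 31 of the 45 pairs of these genes had a positive Pearson correlation, given here as a description since 3 libraries share each genotype. The closest pairs were *Hk1* and *Pdk1* (r = 0.95, n = 6), *Aldoa* and *Pkm* (r = 0.92) and *Slc2a1* and *Pdk1* (r = 0.90). The most opposed were *Hk1* and *Slc16a1* (r = -0.78). Outside the lists, the genes most like the mean of the 10 standardised genes included *Gm13685* (r = 0.98), *Stil* (r = 0.98), *Gm27023* (r = 0.97) and *Arhgef3* (r = 0.96). The mean of the 10 was itself highest in Apc1322T replicate 1, so genes chosen in this way are highest there by selection. Of 10645 genes compared, 11 (0.103%) reached an r of 0.95.

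The rest of the pathway was read from lists of 64 other genes, 63 of which were tested. Of these 24 were higher and 39 lower in ApcMin on average, with a median log2 fold change of -0.11. At an unadjusted edgeR p under 0.05, 11 were lower and 2 were higher, 20.6% of the list beside the 15.1% of all genes given above, and 0 passed after adjustment by edgeR. By DESeq2 1 of the 63 passed an adjusted p under 0.01, *Emb*. The count of 11 was unsteady: it was 14 without Apc1322T replicate 1, 3 without Apc1322T replicate 2, 6 without Apc1322T replicate 3, 5 without ApcMin replicate 1, 7 without ApcMin replicate 2 and 5 without ApcMin replicate 3. The count of 2 higher was 4 without Apc1322T replicate 1 and 1 without Apc1322T replicate 2. Without Apc1322T replicate 1, 18 of the 63 were thus under this unadjusted p, where 24.4% of all genes were. The same share stands beside the counts of the smaller lists below. By libraries that did not overlap, 13 of the 63 were lower and 4 higher, where 9.96% of all genes were lower and 11.0% higher.

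Among 17 other glycolytic enzymes 4 were lower and 1 was higher at this unadjusted p, and 4 were lower and 3 higher without Apc1322T replicate 1. *Pklr*, the pyruvate kinase of liver and red blood cells, had log2 CPM of 7.65, 8.42 and 8.29 in Apc1322T and of 7.31, 7.60 and 6.88 in ApcMin. Its genotypes did not overlap, and its log2 fold change was -0.86 ± 0.26 (edgeR adjusted p = 0.280). Its 2 highest values were in Apc1322T replicates 2 and 3, the libraries with the highest sums of enterocyte markers. *Gpi1*, which isomerises glucose phosphate, and *Tpi1*, the triose phosphate isomerase, had log2 fold changes of -0.28 ± 0.11 and -0.26 ± 0.095, and neither overlapped. *Gapdh* and the enolase *Eno1* did not overlap either, at -0.26 ± 0.13 and -0.28 ± 0.14, with unadjusted edgeR p of 0.085 and 0.088. *Eno2*, the enolase of neurons, was the 1 gene with a higher level, at 1.07 ± 0.38, from low log2 CPM of -0.45, -0.44 and 0.22 in Apc1322T and 0.87, 1.14 and 0.35 in ApcMin. The log2 fold changes without Apc1322T replicate 1 were -1.06 ± 0.21 for *Pklr*, -0.21 ± 0.086 for *Gpi1*, -0.22 ± 0.091 for *Tpi1*, -0.16 ± 0.091 for *Gapdh*, -0.13 ± 0.091 for *Eno1* and 0.94 ± 0.45 for *Eno2*, the last with an unadjusted edgeR p of 0.078. The 5 neuron and glia markers summed to between 6.80 and 8.73 CPM in Apc1322T and between 9.08 and 11.9 CPM in ApcMin. *Hk3*, a hexokinase of leukocytes, did not overlap at 1.29 ± 0.59, and its value of 2.37 in ApcMin replicate 1 stood over 0.54 and 0.45 in the other 2 ApcMin libraries.

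The genes around lactate and pyruvate were the next group, with 3 of 18 tested lower and 1 higher at an unadjusted edgeR p under 0.05. Without Apc1322T replicate 1 the counts were the same, but with *Pdk2* in place of *Bsg* among the lower genes. *Bsg*, which carries the lactate transporters to the membrane, had log2 CPM of 10.19, 10.08 and 9.97 in Apc1322T and of 9.80, 9.84 and 9.83 in ApcMin. All 3 ApcMin libraries were lower, with a log2 fold change of -0.26 ± 0.10 (edgeR adjusted p = 0.317). *Emb* (embigin), a relative of *Bsg* that can also bind lactate transporters, differed the other way. It had 2.17, 2.06 and 2.32 in Apc1322T and 3.69, 2.98 and 4.14 in ApcMin, a log2 fold change of 1.51 ± 0.30 (edgeR adjusted p = 0.257). By DESeq2 its adjusted p was 0.00077, past the threshold of 0.01. *Mpc2*, a subunit of the mitochondrial pyruvate carrier, was at -0.27 ± 0.098 and *Dld*, a subunit of pyruvate dehydrogenase and related complexes, at -0.29 ± 0.081, and neither overlapped. In gluconeogenesis 2 of 8 genes were under this p, the fructose bisphosphatase *Fbp2* at -0.44 ± 0.10 and the pyruvate carboxylase *Pcx* at -0.55 ± 0.20. In the pentose phosphate branch 2 of 8 were, *Rpe* at -0.32 ± 0.11 and *Taldo1* at -0.29 ± 0.11, and *Pgd* also did not overlap, at -0.19 ± 0.098. With Apc1322T replicate 1 left out, the log2 fold changes were -0.20 ± 0.084 for *Bsg*, 1.51 ± 0.36 for *Emb*, -0.32 ± 0.095 for *Mpc2*, -0.34 ± 0.071 for *Dld*, -0.53 ± 0.079 for *Fbp2* and -0.62 ± 0.22 for *Pcx*. None of the 8 other hexose transporters and none of the 4 *Pfkfb* genes, which set the level of the activator of phosphofructokinase, had an unadjusted edgeR p under 0.05 with all 6 libraries. Without Apc1322T replicate 1, 2 of the 8 transporters and 1 of the 4 *Pfkfb* genes did, all lower in ApcMin. They were *Slc2a2* at -1.83 ± 0.16 (edgeR adjusted p = 0.040), *Slc2a5* at -1.21 ± 0.22 (0.064) and *Pfkfb4* at -0.83 ± 0.21 (0.096).

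The choice between isozymes was compared by the log2 ratio of 2 genes within a library, which does not depend on how libraries are scaled. With 3 libraries against 3, an exact permutation test over 20 assignments cannot give a two-sided p under 0.10, and in none of the 7 ratios were the genotypes apart. The log2 ratio of *Pfkp* to *Pfkl* was -0.27, 0.82 and 0.74 in Apc1322T and -0.05, 0.03 and -0.40 in ApcMin, a difference of -0.57 (exact permutation p = 0.30, adjusted over the 7 ratios 0.70). It was -0.92 without Apc1322T replicate 1 (exact permutation p = 0.10, the smallest that 2 against 3 allow) and -0.38 without Apc1322T replicate 2. In this ratio Apc1322T replicate 1 lay within the ApcMin range, while Apc1322T replicates 2 and 3 lay above it. *Slc2a2*, the glucose transporter of the basolateral side of enterocytes, had log2 ratios to *Slc2a1* of -2.62, 0.46 and 0.77 in Apc1322T and of -1.53, -1.58 and -2.12 in ApcMin, a difference of -1.28 (exact permutation p = 0.40). Here Apc1322T replicate 1 was the lowest of all libraries, and Apc1322T replicates 2 and 3 were the highest. The difference was -2.36 without Apc1322T replicate 1 (exact permutation p = 0.10), -0.82 without Apc1322T replicate 2 and -0.66 without Apc1322T replicate 3. *Hk2* over *Hk1* differed by -0.021 (exact permutation p = 0.90), *Slc16a3* over *Slc16a1* by -0.17 (0.50), *Pdk4* over *Pdk1* by -0.28 (0.60) and *Ldhb* over *Ldha* by 0.52 (0.30). These 4 differences without Apc1322T replicate 1 were 0.062, 0.050, -0.58 and 0.85, and the last was 0.20 without Apc1322T replicate 3.

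**Figure D4:**
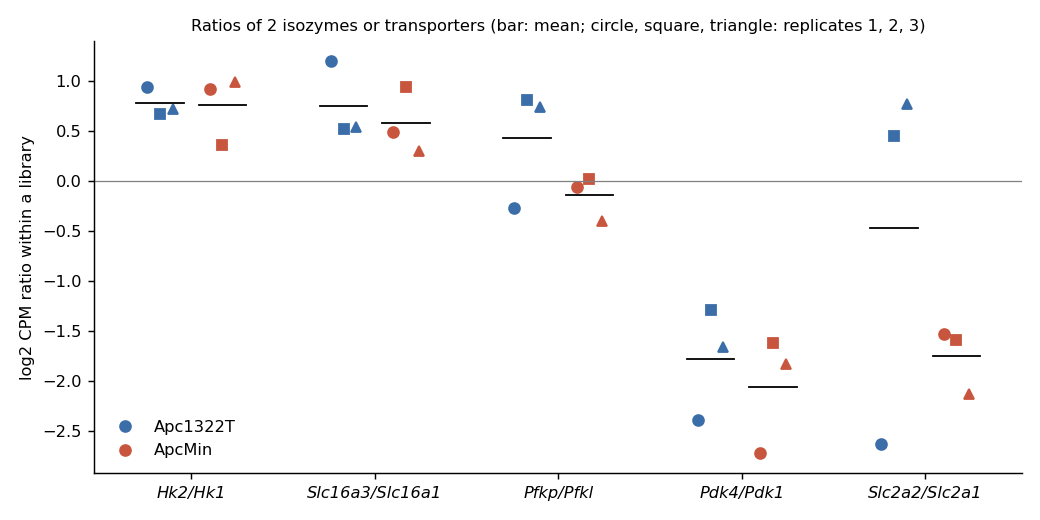
Log2 ratio of 5 isozyme or transporter pairs in each library, by genotype (vertical axis, log2 of the ratio of CPM). The ratios of Pfkp to Pfkl and Slc2a2 to Slc2a1 are high in Apc1322T replicates 2 and 3 and lower in the other 4 libraries.

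Because the epithelial markers were lower in ApcMin, each gene was also set against their mean log2 CPM within the library, a comparison chosen after these markers were seen to differ. This mean was 10.35 in Apc1322T and 9.99 in ApcMin. *Pfkp* relative to the markers was -2.12, -2.01 and -2.05 in Apc1322T and -2.20, -2.19 and -2.25 in ApcMin. The genotypes still did not overlap, with a difference of -0.15 in place of -0.51 (exact permutation p = 0.10, the smallest possible). *Ldha* relative to the markers overlapped, with 0.97, 0.70 and 0.62 in Apc1322T and 0.71, 0.83 and 0.95 in ApcMin, with a difference of 0.067 (exact permutation p = 0.70). The overlap came from Apc1322T replicate 1, the highest, as Apc1322T replicates 2 and 3 lay under every ApcMin library. *Slc16a1* no longer overlapped and was higher in ApcMin by 0.31 (exact permutation p = 0.10). The differences of the other genes were 0.21 for *Aldoa*, 0.22 for *Pkm*, 0.13 for *Slc16a3*, 0.61 for *Slc2a1*, 0.40 for *Hk1*, 0.38 for *Hk2* and 0.41 for *Pdk1*. Without Apc1322T replicate 1, *Pfkp* relative to the markers was lower, and the rest of the 10 genes were higher, in every ApcMin library. The marker mean itself was 10.41 and 10.44 in Apc1322T replicates 2 and 3 and 10.19 in replicate 1. How many of all genes did the same relative to the markers was not counted. The marker difference of -0.35 is subtracted from every gene alike, so a gene between -0.35 and 0 had to turn its sign, which says nothing about that gene.

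Of 10 regulators of the pathway, 0 had an unadjusted edgeR p under 0.05 with all 6 libraries, and 4 did without Apc1322T replicate 1, *Vhl* and *Myc* higher and *Mlxipl* and *Esrra* lower in ApcMin. Over all genes tested, 15.1% were under this p with all 6 libraries and 24.4% without Apc1322T replicate 1. *Hif1a*, the oxygen regulated transcription factor, had log2 CPM of 8.39, 8.11 and 8.34 in Apc1322T and of 8.18, 8.12 and 8.01 in ApcMin, which overlapped (log2 fold change -0.18 ± 0.11). *Myc* had 6.08, 5.40 and 5.54 in Apc1322T and 6.08, 5.84 and 6.25 in ApcMin, a log2 fold change of 0.36 ± 0.20 (edgeR adjusted p = 0.412) that was 0.60 ± 0.13 without Apc1322T replicate 1 (adjusted p = 0.075). Like *Slc2a1*, *Hk1* and *Pdk1*, *Myc* was lowest in Apc1322T replicates 2 and 3. These 2 libraries lay under every ApcMin library in 23.9% of all genes tested. *Vhl*, which marks Hif proteins for destruction, and *Tigar*, which lowers glycolytic flux, did not overlap between the genotypes, at 0.17 ± 0.096 and 0.17 ± 0.091. Among 19 other hypoxia responsive genes 11 were higher and 8 lower on average, and 2 had an unadjusted edgeR p under 0.05. This count was 6 without Apc1322T replicate 1, 5 higher and 1 lower in ApcMin, beside the same 24.4% of all genes. Among them was *P4ha2*, a subunit of collagen prolyl hydroxylase, at 0.99 ± 0.12 in place of 0.55 ± 0.30. *Ddit4*, an inhibitor of mTORC1, was at 0.62 ± 0.098 in place of 0.23 ± 0.27. *Vegfa*, the vascular growth factor, had 6.35, 6.41 and 6.35 in Apc1322T and 6.57, 6.75 and 6.88 in ApcMin. All its ApcMin libraries were higher, with a log2 fold change of 0.37 ± 0.099 (edgeR adjusted p = 0.279). *Mxi1*, a Myc antagonist, was lower in all ApcMin libraries, at -0.53 ± 0.16 (edgeR adjusted p = 0.285). Leaving out Apc1322T replicate 1 gave log2 fold changes of 0.36 ± 0.11 for *Vegfa*, -0.68 ± 0.11 for *Mxi1* and -0.12 ± 0.11 for *Hif1a*.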

How the data were processed

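RNA-seq libraries of excised intestinal adenomas, 3 per genotype, took their genotype and replicate number from the titles in the labels. The authors assigned single-end reads of 50 bases to mouse transcripts with Salmon and deposited the estimated counts of each gene, with GRCm38.p6 and DESeq2 also named in the submitters' processing notes. Salmon divides reads shared by several transcripts, so counts of genes with near copies, such as *Ldha*, *Aldoa*, *Gapdh* and *Eno1* with their pseudogenes, depend on that division. How the Salmon output was summed to genes was taken from the study's methods, which name tximport.

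For testing, the deposited values were rounded to integers and matched by Ensembl identifier to GENCODE M21 symbols (34582 of 34866 entries). Of the 2 *Aldoa* entries, the one with most counts was used. Genes were kept with filterByExpr (minimum count 10, minimum total 15) and scaled by TMM, and the genotypes were compared over all 16536 genes in edgeR 4.0.16 (R 4.3.3) by its quasi-likelihood test with robust estimation. The p-values were adjusted by the Benjamini-Hochberg method and genes called under 0.01. Standard errors were derived from the F statistic, log2 CPM used a prior count of 2, and a positive fold change denotes a higher level in ApcMin. Levels per kilobase used the longest annotated transcript. The 7 isozyme ratios were compared with a two-sided exact permutation test. DESeq2 1.42.0 and limma 3.58.1 (voom) were alternatives, as were other normalizations, filters, a replicate block and each library left out in turn. The scripts were tested on simulated data.

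The genes named were the 10 genes, then those of the pathway, regulator and hypoxia lists that were the most abundant isozyme of a step, had an unadjusted p under 0.05, did not overlap or bear on a ratio, and the 5 genes outside the lists most correlated with the set. The 10 genes, the lists and the tests were chosen with earlier results of these data known. *Hif1a*, *Myc*, isozymes of low level and genes named for their value without 1 library or by DESeq2 alone were added to these with their values known. A few genes that the rule selects, and 1 ratio, are not reported here. The p-values set the difference between the genotypes against the spread between these libraries. A count of 3, taken as the smallest signal, corresponds to between 0.0895 and 0.130 CPM and covers counting error only.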

Additional observations from a re-analysis of the deposited data

How the results depend on the processing

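Of the 15 alternative settings tried for each of the 10 genes, *Slc2a1* and *Pfkp* kept their direction in 15, and no setting brought any of the 10 past an adjusted p under 0.01 where it gave one. The number of genes called among all tested, 0, was 194 by DESeq2, 1 with no filter on low counts and 1 at an adjusted p under 0.05, and ran from 0 to 1 with each library left out. The number of the 10 genes at an unadjusted p under 0.05, 2, was 1 under upper quartile normalization and ran from 1 to 3 with each library left out. For the other pathway genes, the 11 lower became 6 under upper quartile normalization and 3 to 14 with each library left out, and the 2 higher became 1 to 4. Replicate numbers 1 to 3 occur in both genotypes but belong to different mice. Same-numbered libraries did not deviate together (r = -0.014, 0.16 and -0.29), so they share only a number. With the replicate number as a block, 1 of the 10 genes (*Pfkp*, -0.51, edgeR adjusted p = 0.356) stayed under an unadjusted p of 0.05, with 7 lower and 1 higher of the other pathway genes, and 0 of the 10 genes were called.

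*Hk2* turned to -0.0024 by DESeq2 and *Slc16a1* to 0.014 under upper quartile normalization. Relative to the epithelial markers, an alternative chosen after seeing the data as was the count at an unadjusted p, every gene moves by the same amount, so by construction *Aldoa* turned to 0.21, *Pkm* to 0.22, *Ldha* to 0.067, *Slc16a1* to 0.31 and *Slc16a3* to 0.13. With each library left out, log2 fold changes ran from -0.032 to 0.17 for *Hk1*, -0.10 to 0.25 for *Hk2*, -0.13 to 0.28 for *Pdk1* and -0.083 to 0.0014 for *Slc16a1*, which crossed 0. The difference in log2 ratio ran from -0.14 to 0.18 for *Hk2* over *Hk1*, -0.36 to 0.050 for *Slc16a3* over *Slc16a1* and -0.58 to 0.054 for *Pdk4* over *Pdk1*, and the other 4 ratios kept their sign, from -0.92 to -0.38 for *Pfkp* over *Pfkl*, -2.36 to -0.66 for *Slc2a2* over *Slc2a1* and 0.20 to 0.85 for *Ldhb* over *Ldha*. With the mean length of all transcripts, levels per kilobase were 6.67 for *Slc2a1*, 5.84 for *Hk1*, 5.75 for *Hk2*, 7.05 for *Pfkp*, 10.03 for *Aldoa*, 10.49 for *Pkm*, 11.02 for *Ldha*, 5.25 for *Pdk1* and 7.06 for *Slc16a3*. Precision was set by the spread between libraries, since each of the 10 genes had at least 1143 counts in each library.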

Other observations

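The second *Aldoa* entry, which lies next to the first on chromosome 7, held few reads: 22, 13 and 14 counts in Apc1322T and 15, 7 and 23 in ApcMin. Its log2 fold change was -0.51 ± 0.46 (edgeR adjusted p = 0.596). The processed pseudogene *Ldha-ps2* held between 5 and 22 counts in a library, and *Ldha-ps* between 0 and 9, so few reads were assigned to these copies of *Ldha*. *Eno1b*, a near copy of *Eno1*, held more, with 409, 232 and 151 counts in Apc1322T and 556, 277 and 455 in ApcMin. Its level was not tested against that of *Eno1*.

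The hexokinase gene *Hkdc1* had log2 CPM of 6.34, 7.52 and 7.38 in Apc1322T and of 6.54, 7.0 and 6.43 in ApcMin. The sodium coupled glucose transporter *Slc5a1*, which takes up sugar from the gut lumen, had 8.03, 9.56 and 10.19 in Apc1322T and 8.91, 9.19 and 7.80 in ApcMin. Both were low in Apc1322T replicate 1 beside the other libraries of its genotype, as was *Slc2a2*, and their genotypes overlapped (edgeR adjusted p = 0.489 for *Hkdc1* and 0.542 for *Slc5a1*).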
